A study of Mus musculus with 40 samples.

Results

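This account describes *Tnf* and inflammatory cytokine genes that accompany it in livers of mice after small bowel resection (SBR). The genes were chosen by name as 10 genes of tumor necrosis factor (TNF), interleukin-1, chemokine and NF-κB biology. The rule that lists them uses no measured value, but they were proposed with earlier results of these data known. The deposited table held 9 of the 10 among its 15958 genes, and *Il1b* was not analysed here. *Tnf* is also a gene that the study singled out in these livers, so its values here are not independent evidence of its direction.

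RNA sequencing libraries came from wild-type male C57BL/6 mice operated on at 8 weeks of age. Mice had a sham operation or SBR, labelled as removal of 50 to 60% of the small bowel (the study's methods give a larger share), and from 3 weeks after surgery received vehicle or WUSTL0717 each day for 7 weeks at 30 mg/kg. WUSTL0717 is an orally given agonist of the liver X receptors (LXRs), nuclear receptors of sterol metabolism, which the study describes as gut-restricted. There were 18 liver libraries (5 sham vehicle, 8 SBR vehicle, 5 SBR WUSTL0717), 11 of the duodenum and 11 of the post-anastomotic ileum (each 3, 4 and 4), 40 in all, and every library was taken as 1 mouse. Sham mice with WUSTL0717 were not part of the table, so the compound can be read only against resected mice, and all animals were male and given the same liquid diet. The sources used here do not say whether the tissues came from the same mice.

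TNF is a cytokine released largely by macrophages and other leukocytes. It binds its receptors on most liver cells, frees the NF-κB transcription factors from their inhibitors, and so switches on chemokines that attract leukocytes, adhesion molecules that hold them, and inhibitors that end the signal. In the liver, Kupffer cells, the resident macrophages, see portal blood from the gut first, which is why this pathway is often followed after intestinal injury.

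Values are log2 TPM (a transcript abundance scaled for gene length and sequencing depth) after the authors' ComBat batch adjustment, here called levels. The labelled batches were the liver in one and both intestinal segments in the other, and after adjustment the tissues no longer stood apart in their defining genes. The summed TPM of 10 hepatocyte markers ran from 2194 to 5199 in liver libraries, from 869 to 3499 in duodenum and from 2414 to 14175 in ileum. Tissue labels could therefore not be checked, levels are not compared between liver and intestine or between genes, and differences between groups are read within a tissue. Library sums ran from 618212 to 863110 TPM. Sequencing depth is unknown from these values. A gene was tested where its mean level in the tissue was at least 1, and was called where limma's adjusted p was under 0.05.

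One liver library stood apart. SBR vehicle replicate 2 had the lowest level in its group for 9 of the 9 genes, and its median over all genes was 3.13, below the 3.32 to 3.77 of the other SBR vehicle livers. For the gene lists and the genes called after SBR, counts without it are given beside those they change.

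Many of these genes are known targets of NF-κB, so promoter sequences that hold its core motif are printed. Of the 10 genes, 6 had an entry in a RefSeq promoter table (build GRCm38.p6). *Ccl2*, *Ccl5*, *Cxcl16* and *Relb* had none. In the 250 bases before each start, both strands were searched for GGAANTTCC, a core that NF-κB dimers bind, which was picked after the sequences had been seen. This core occurred in 0.813% of 32851 promoters, and the looser NF-κB consensus of 10 positions, which can overlap it, in 7.25%. Windows below run 5′ to 3′ on the strand of the gene, with the core in capitals.

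Cxcl1: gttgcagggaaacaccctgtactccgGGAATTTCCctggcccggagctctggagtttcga
Nfkbia: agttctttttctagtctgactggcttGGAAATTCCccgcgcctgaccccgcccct
Icam1: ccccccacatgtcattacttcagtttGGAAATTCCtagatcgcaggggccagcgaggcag
Tnfaip3: tcacgtgactGGAATTTCCatcggaaatc
Tnf: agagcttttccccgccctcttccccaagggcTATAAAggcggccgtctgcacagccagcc

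The *Cxcl1* window lies at chr5:90891149-90891208 (plus strand) with the core starting 70 bases before the start, and the *Nfkbia* window at chr12:55492648-55492702 (minus strand) with the core at 29 bases. The *Icam1* window lies at chr9:21015761-21015820 (plus strand) with the core at 153 bases. The *Tnfaip3* window lies at chr10:19015416-19015444 (minus strand) with the core at 24 bases before 1 of its 2 listed starts, inside the gene as GENCODE draws it. *Tnf* and *Il1b* held neither the core nor the consensus in these 250 bases. The *Tnf* window, the 60 bases up to its start at chr17:35202008-35202067 (minus strand), is printed with its TATA box in capitals instead. A match describes letters only, and the absence of one says nothing about the factor.

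*Tnf* (chr17:35199381-35202007, minus strand) was higher in every SBR vehicle liver than in any sham liver. Sham livers had *Tnf* levels of 0.75, 0.57, 0.89, 1.11 and 0.80. In the 8 SBR vehicle livers the lowest level was 1.58, the median 1.96 and the highest 2.75. In the 5 SBR WUSTL0717 livers the levels were 1.13, 1.10, 0.85, 1.83 and 1.92. The sham and SBR vehicle groups did not overlap, while 3 of the 5 treated livers lay under every SBR vehicle liver and the other 2 lay within that group.

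The mean *Tnf* level was 0.82 ± 0.20 (SD, n = 5) in sham, 1.99 ± 0.36 (n = 8) in SBR vehicle and 1.36 ± 0.48 (n = 5) in SBR WUSTL0717 livers. SBR raised *Tnf* by 1.17 (SE 0.19, limma adjusted p = 9.77e-05, exact permutation p = 0.000777, two-sided, the smallest that 5 against 8 libraries can give). With WUSTL0717 the difference from SBR vehicle was -0.63 (SE 0.19, 95% interval -1.03 to -0.22, limma p = 0.00462, adjusted p = 0.08, exact permutation p = 0.0179). The treated livers differed from sham by 0.54 (adjusted p = 0.0649, and 0.0281 without SBR WUSTL0717 replicate 3). This difference was called under library weights (0.61, adjusted p = 0.0136) and with a replicate block (0.54, adjusted p = 0.032). In the fit as deposited, of the 3 groups in order, only the outer pair, sham and SBR vehicle, passed the test across all genes. The treated group stood between them without passing against either in that fit. *Tnf* passed the filter on low levels through the resected groups, since its sham mean was under 1.

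**Figure D1:**
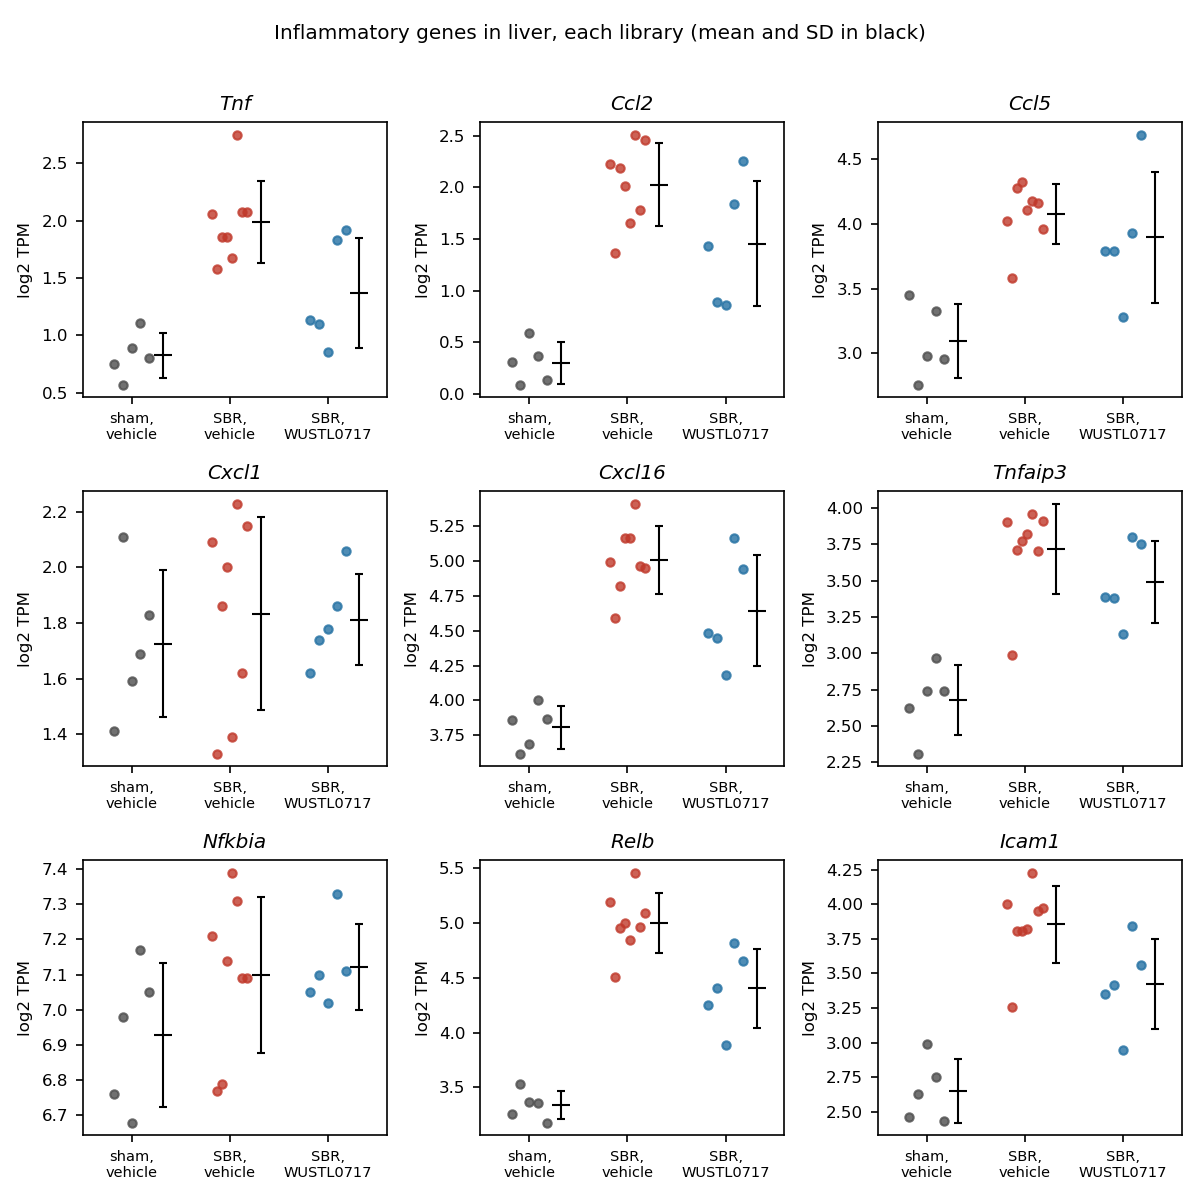
Level in log2 TPM (y axis, ComBat-adjusted, one panel per gene with its own range) of the 9 genes in each liver library, for 5 sham vehicle (grey), 8 SBR vehicle (red) and 5 SBR WUSTL0717 livers (blue), with the group mean and SD in black. Tnf, Ccl2, Ccl5, Cxcl16, Tnfaip3, Relb and Icam1 do not overlap between sham and SBR vehicle, while Cxcl1 and Nfkbia do.

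Of the 9 genes tested, 7 rose in the liver after SBR, and the same 7 did not overlap between SBR vehicle and sham. This count must be read against a broad change. Of all 15901 genes tested, 41.9% were called (6663, and 9010 without SBR vehicle replicate 2). The share called higher was 37.4%, and 15.6% were higher with no overlap. The median difference was 1.17 over the 9 genes and 0.25 over all genes. Since the whole distribution had shifted, each library was also centred on its own median, which brought the median over all genes to -0.06 and the share of called genes that were higher from 89.3% to 41.5%. The same 7 genes were then still called higher, beside 20.4% of all genes called higher and 49.2% called in either direction. *Ccl2* was then at 1.42, *Relb* at 1.35, *Tnf* at 0.86 and *Ccl5* at 0.68. In these bulk samples, more cells of a type and more RNA per cell cannot be told apart.

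Among the chemokines, *Ccl2* (chr11:82035571-82037453, plus strand), which draws monocytes through the receptor CCR2, had the widest gap. Its level was 0.31, 0.09, 0.59, 0.37 and 0.13 in sham livers. It ran from 1.36 to 2.51 with a median of 2.10 in SBR vehicle livers. All SBR vehicle livers were thus well above the highest sham liver, and the difference of 1.72 (SE 0.23) passed the test (adjusted p = 7.32e-06, exact permutation p = 0.000777). *Ccl2* also passed the filter through the resected groups, with a sham mean of 0.30.

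*Cxcl16* (chr11:70453983-70459984, minus strand), a membrane-bound chemokine and scavenger receptor that attracts CXCR6-bearing T and NKT cells, ran from 3.62 to 4.00 in sham and from 4.59 to 5.41 in SBR vehicle livers. It rose by 1.20 (SE 0.15, adjusted p = 4.45e-06). *Ccl5* (chr11:83525778-83530518, minus strand), a chemokine of T cells, NK cells and macrophages, ran from 2.76 to 3.45 in sham and from 3.58 to 4.32 in SBR vehicle livers. It rose by 0.98 (SE 0.18, adjusted p = 0.000283). Both genes left a gap between the groups, a narrow one for *Ccl5*.

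*Cxcl1* (chr5:90891241-90893115, plus strand), the neutrophil chemokine, differed from the other chemokines. Its level was 1.41 to 2.11 in sham and 1.33 to 2.23 in SBR vehicle livers, so the SBR group spanned the whole sham range. The difference was 0.11 (95% interval -0.23 to 0.44, adjusted p = 0.618), and after centring it was -0.20.

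Of the regulators, *Relb* (chr7:19606217-19629438, minus strand), the NF-κB subunit of the noncanonical arm, had the smallest p of the 9 genes. Its levels in sham livers were 3.26, 3.53, 3.37, 3.36 and 3.18. SBR vehicle livers ran from 4.51 through a median of 4.98 to 5.46. The groups lay almost 1 unit apart at their nearest, and *Relb* rose by 1.66 (SE 0.15, adjusted p = 1.26e-07).

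*Tnfaip3* (chr10:19000910-19015657, minus strand) encodes A20, the ubiquitin-editing enzyme that shuts down TNF signalling. It ran from 2.31 to 2.97 in sham livers, and in SBR vehicle livers from 3.70 to 3.96 apart from replicate 2 at 2.99. It rose by 1.04 (SE 0.16, adjusted p = 3.04e-05), and by 1.15 without that library. *Nfkbia* (chr12:55489410-55492647, minus strand) encodes IκBα, the inhibitor that holds NF-κB in the cytoplasm and is itself an NF-κB target. Its levels of 6.68 to 7.17 in sham and 6.77 to 7.39 in SBR vehicle livers overlapped, with a difference of 0.17 (95% interval -0.07 to 0.41, adjusted p = 0.237) and of -0.14 after centring. Under library weights *Nfkbia* was called higher (0.29, adjusted p = 0.00534), where 65.8% of all genes were called. Of these 2 inhibitor genes, both with the core in the promoter windows above, *Tnfaip3* alone was called in the fit as deposited.

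*Icam1* (chr9:21015985-21028817, plus strand), the adhesion molecule that binds leukocyte integrins, ran from 2.43 to 2.99 in sham and from 3.26 to 4.23 in SBR vehicle livers. It rose by 1.20 (SE 0.15, adjusted p = 5.28e-06). Leaving out any 1 of the 13 libraries kept all 7 of these calls.

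With WUSTL0717, 8 of the 9 genes had a lower mean than in SBR vehicle livers, with a median of -0.36 against 0.02 over all genes. The one gene called was *Relb*, beside 4.1% of all genes called and 2.66% called lower. Its treated livers had levels of 4.25, 4.41, 3.89, 4.82 and 4.65, of which 3 lay under every SBR vehicle liver. The difference was -0.60 (SE 0.15, adjusted p = 0.0299, exact permutation p = 0.00544), and the mean of 4.40 ± 0.36 (n = 5) stayed above the sham mean of 3.34 ± 0.13 (n = 5). No member was lower with no overlap, where 0.308% of all genes were.

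*Relb* was called under 6 of 9 alternatives and in 8 of 13 fits that left out 1 library, and *Tnf* in 3 of those 13. The *Relb* call was lost on leaving out any of 5 single libraries (SBR vehicle replicates 1 and 6, SBR WUSTL0717 replicates 1, 2 and 3), and its adjusted p ran from 0.00741 to 0.122 over the 13 leave-outs. It was lost under 3 of the 9 alternatives, a fit of only the compared groups (adjusted p = 0.0861), an unmoderated test (0.152) and the replicate block. Both genes were called when each library was centred, under quantile normalization and under library weights, where 19.7%, 16.6% and 17.7% of all genes were called. There *Tnf* was at -0.62 (adjusted p = 0.0166), -0.56 (0.0304) and -0.65 (0.0209). *Tnf* was also called without SBR vehicle replicate 2 (-0.68, 0.0488), SBR WUSTL0717 replicate 4 (-0.74, 0.0325) or SBR WUSTL0717 replicate 5 (-0.76, 0.0456). Over the leave-outs, the adjusted p of *Tnf* ran from 0.0325 to 0.268.

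*Icam1* and *Cxcl16* were called under those same 3 scalings and not in the fit as deposited. *Icam1* had treated levels of 3.35, 3.42, 2.95, 3.84 and 3.56, and differed from SBR vehicle by -0.43 (SE 0.15, adjusted p = 0.133, and 0.0297 without SBR vehicle replicate 2 or 0.0455 without SBR WUSTL0717 replicate 4). *Cxcl16* had treated levels of 4.48, 4.45, 4.18, 5.16 and 4.94, and differed by -0.36 (SE 0.15, adjusted p = 0.207, and 0.0467 without SBR WUSTL0717 replicate 4). In both genes most treated livers lay in the lower part of the SBR vehicle range or under it.

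*Ccl2* ranged from 0.86 to 2.25 in treated livers and differed from SBR vehicle by -0.56 (95% interval -1.04 to -0.09, adjusted p = 0.189). *Tnfaip3* ranged from 3.13 to 3.80 and differed by -0.23 (95% interval -0.56 to 0.10, adjusted p = 0.508). *Ccl5*, at 3.28 to 4.69, differed by -0.18 (-0.56 to 0.20, adjusted p = 0.709), and 1 treated liver lay above every SBR vehicle liver. *Cxcl1* (-0.02, interval -0.35 to 0.31) and *Nfkbia* (0.03, interval -0.21 to 0.26) had estimates near 0, with intervals that do not reach 0.5 in either direction. The treated livers were not alike, in that replicate 3 had the lowest level for 8 of the 9 genes and replicates 4 and 5 the highest for 5 and 4.

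Against sham, treated livers still had 6 of the 9 genes called higher, where 28.8% of all genes were called and 27.9% called higher. These were *Ccl2* (1.16, adjusted p = 0.00317), *Relb* (1.06, 0.00031), *Cxcl16* (0.84, 0.00181), *Tnfaip3* (0.81, 0.00281), *Ccl5* (0.80, 0.00802) and *Icam1* (0.77, 0.00354). *Ccl2*, *Relb*, *Cxcl16* and *Tnfaip3* did not overlap between treated and sham livers, in a comparison where 27.4% of all genes were higher with no overlap. After centring, *Ccl5* differed from sham by 0.50 (adjusted p = 0.0592). This comparison and the one against vehicle share the treated livers and are given side by side.

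**Figure D2:**
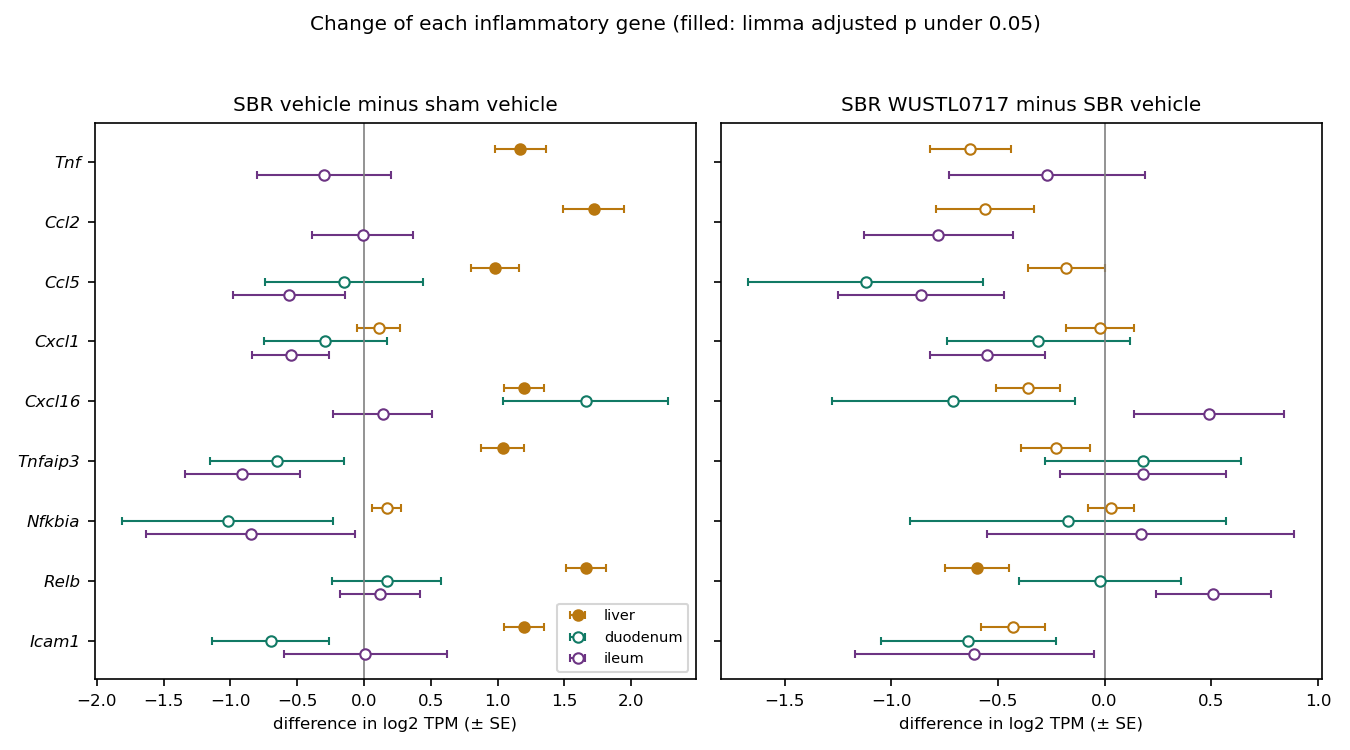
Difference in log2 TPM (x axis, with SE) of each gene for SBR vehicle minus sham (left) and SBR WUSTL0717 minus SBR vehicle (right), in liver, duodenum and ileum, filled where limma's adjusted p was under 0.05. In liver 7 genes are filled on the left and Relb alone on the right, and no intestinal point is filled.

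Other genes of the pathway were described by lists. Their counts after SBR stand beside 37.4% of all genes called higher in liver and a median of 0.25. Their counts after centring stand beside 20.4% of all genes called higher, 49.2% called in either direction and a median of -0.06. Without SBR vehicle replicate 2, 9010 of all genes were called, against 6663 with it. Of 14 genes tested in liver from a list of cytokines and receptors, mostly of the TNF and interleukin-1 families but with *Il6ra* and the sheddase *Adam17* among them, 8 rose and 2 fell after SBR, with a median difference of 0.39 (5 and 3, with 0.08, after centring, and 9 and 2 without SBR vehicle replicate 2). The interleukin-1 receptor antagonist *Il1rn* rose from a mean level of 0.69 to 2.21 (1.52, SE 0.21, adjusted p = 1.18e-05) and *Ltb*, encoding lymphotoxin beta, a ligand of the noncanonical arm that *Relb* serves, from 1.80 to 3.29 (1.49, SE 0.21, adjusted p = 1.33e-05). *Tnfsf13b*, encoding the B cell factor BAFF, rose by 0.56 (adjusted p = 1.84e-05). With sham means of 0.69 and 0.99, *Il1rn* and *Tnfsf13b* passed the filter on low levels through the resected groups. *Il1rap*, the shared chain of the interleukin-1 receptor, fell by 0.89 (adjusted p = 1.28e-05) and *Il6ra*, the interleukin-6 receptor and so of neither family, fell by 0.68 (adjusted p = 0.00637).

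Of the receptors, *Tnfrsf1a*, encoding the main TNF receptor, rose from 6.70 ± 0.19 to 7.32 ± 0.25 (0.63, SE 0.12, adjusted p = 0.000253). *Tnfrsf1b*, the second TNF receptor, differed by 0.29 (adjusted p = 0.0983, and by -0.02 after centring) and *Il1r1* by 0.00 (SE 0.20, adjusted p = 0.994). With WUSTL0717, 2 of these 14 genes fell, beside 2.66% of all genes called lower. They were *Ltb*, by 0.77 (SE 0.21, adjusted p = 0.0427), and *Tnfsf13b*, by 0.35 (adjusted p = 0.0212). After centring 2 were called higher and 3 lower, under quantile normalization 2 and 4, and without SBR vehicle replicate 2 1 and 3. Of all genes, 19.7% were called after centring (11.5% higher) and 16.6% under quantile normalization (8.09% higher). *Il1rn* differed by -0.60 (adjusted p = 0.124, and 0.0442 without SBR vehicle replicate 2) and *Tnfrsf1a* by -0.08 (adjusted p = 0.819).

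Of 28 genes of the NF-κB signalling cascade, 19 rose and 0 fell after SBR, beside the 37.4% of all genes called higher, with a median of 0.44 (10 and 5, with 0.13, after centring, and 23 and 0 without SBR vehicle replicate 2). *Nfkb2*, the partner of RelB, rose by 1.24 (SE 0.14, adjusted p = 1.74e-06), the A20-binding inhibitor *Tnip1* by 1.18 (SE 0.14, adjusted p = 3.34e-06) and *Map3k14*, encoding the kinase NIK that starts the noncanonical arm, by 1.05 (SE 0.13, adjusted p = 4.34e-06). *Nfkb1* rose by 0.68 (adjusted p = 0.000105) and *Rela* by 0.45 (adjusted p = 0.00345), the latter by 0.15 and without a call (adjusted p = 0.114) after centring. With WUSTL0717, 0 of the 28 were called, and the lowest adjusted p was 0.0538. After centring 1 was called higher and 5 lower, where 19.7% of all genes were called and 11.5% called higher. Without SBR vehicle replicate 2, 0 of the 28 were called higher and 2 lower. *Nfkb1* then differed by -0.19 (adjusted p = 0.437) and *Rela* by -0.05 (adjusted p = 0.902).

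Of 18 other chemokines and chemokine receptors tested, 10 rose and 2 fell after SBR, with a median of 0.80 (10 and 4, with 0.50, after centring, and 13 and 1 without SBR vehicle replicate 2). The fractalkine receptor *Cx3cr1* rose from 1.17 to 3.31 (2.13, SE 0.15, adjusted p = 1.52e-08), its ligand *Cx3cl1* from 3.19 to 5.29 (2.10, SE 0.16, adjusted p = 2.25e-08) and *Cxcl14* by 1.81 (SE 0.20, adjusted p = 1.21e-06). *Cxcl13*, the B cell chemokine, fell by 1.53 (SE 0.25, adjusted p = 8.74e-05) and *Ccl24* by 0.62 (adjusted p = 0.0443, and 0.0644 without SBR vehicle replicate 2). With WUSTL0717 the fractalkine pair were the 2 of the 18 called, with *Cx3cr1* at -0.91 (adjusted p = 0.00635) and *Cx3cl1* at -0.92 (adjusted p = 0.00689). After centring 5 of the 18 were called lower, under quantile normalization 4, and without SBR vehicle replicate 2 also 4, with 0 higher in each. Of all genes, 2.66% were called lower as deposited. In either direction, 19.7% were called after centring (11.5% higher) and 16.6% under quantile normalization (8.09% higher).

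Of 17 other adhesion molecules and NF-κB targets, 14 rose and 1 fell after SBR, with a median of 0.69 (10 and 3, with 0.38, after centring). The protease *Plau* rose by 1.35 (adjusted p = 2.63e-07), the macrophage growth factor *Csf1* by 1.14 (adjusted p = 3.52e-06) and the selectin ligand *Selplg* by 1.07 (adjusted p = 6.11e-06). *Sdc4* fell by 0.46 (adjusted p = 0.00725). With WUSTL0717, 0 of the 17 were called, and the lowest adjusted p was 0.059. After centring 1 was called higher and 7 lower, where 19.7% of all genes were called and 11.5% called higher. Without SBR vehicle replicate 2, 0 of the 17 were called higher and 4 lower.

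**Figure D3:**
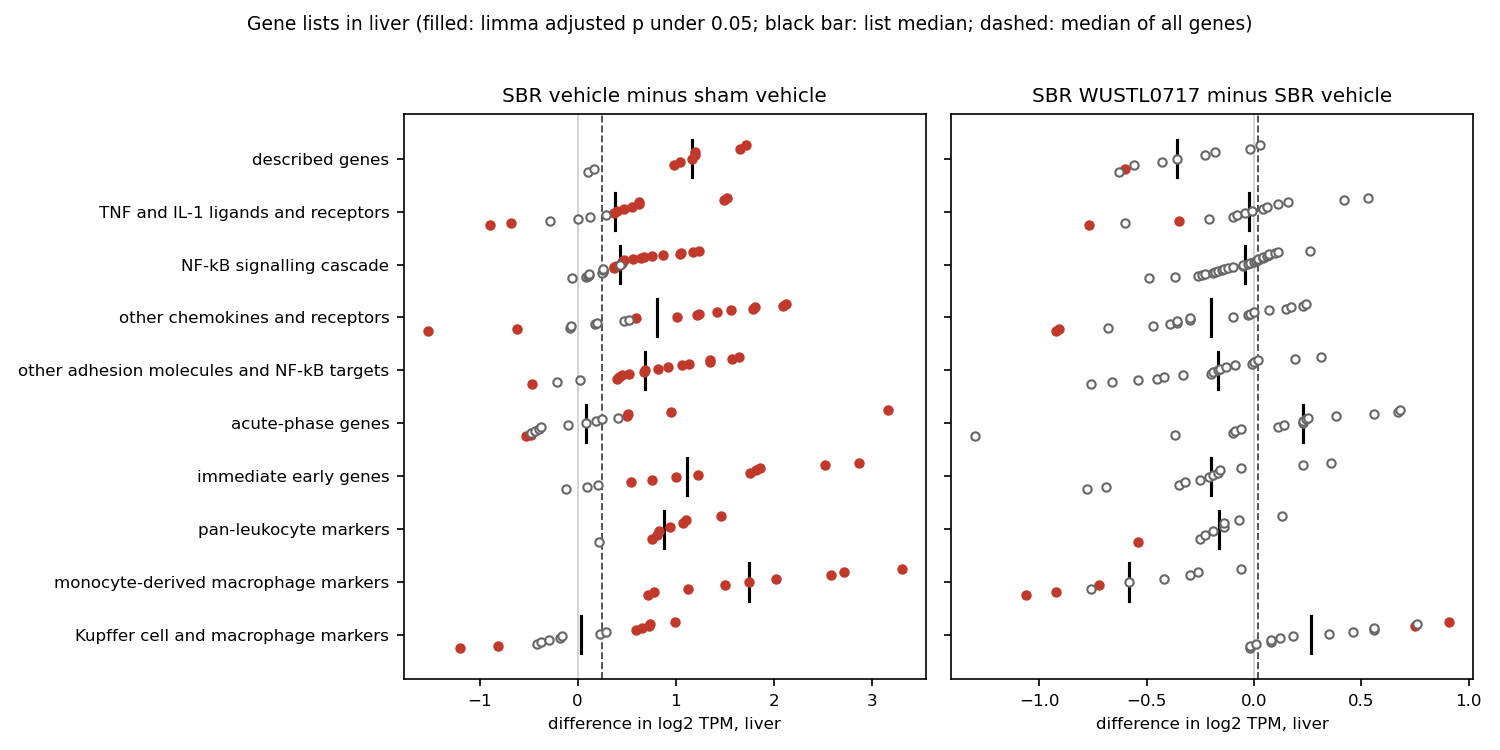
Difference in log2 TPM in liver (x axis) of every tested gene of 10 groups of genes (rows, the described genes on top), for SBR vehicle minus sham (left) and SBR WUSTL0717 minus SBR vehicle (right), filled red where limma's adjusted p was under 0.05, with the list median as a black bar and the median of all genes dashed. On the left the medians lie to the right of the dashed line at 0.25 except those of the acute-phase and Kupffer cell lists, and on the right few genes are filled.

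Markers of some leukocytes, but not of all, rose with these genes after SBR. Of these, 7 of 8 pan-leukocyte markers and 9 of 9 tested markers of monocyte-derived macrophages rose, beside 37.4% of all genes called higher. Their median differences were 0.89 and 1.75. After centring the same numbers rose, with medians of 0.58 and 1.44, beside 20.4% of all genes called higher. Without SBR vehicle replicate 2 they were 8 and 9. The summed TPM, with levels turned back by taking 1 from 2 to their power, of the 8 pan-leukocyte markers was 102 to 136 in sham, 159 to 290 in SBR vehicle and 173 to 256 in SBR WUSTL0717 livers. That of the 9 of 10 monocyte-derived macrophage markers in the table was 127 to 185, 311 to 611 and 262 to 512. Both sums left sham apart from both resected groups, which overlapped each other.

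In that list the lysosomal glycoprotein gene *Gpnmb* rose by 2.72 (adjusted p = 1.57e-08), the integrin *Itgax* by 2.02 (adjusted p = 4.09e-08) and *Spp1*, also a cholangiocyte marker, by 3.31 (adjusted p = 1.52e-08). *Gpnmb* had a sham mean of 0.36 and passed the filter through the resected groups. With WUSTL0717, *Itgax* (-0.72, adjusted p = 0.0196), *Spp1* (-1.06, 0.0183) and *Cd63* (-0.92, 0.0247) fell, 3 of the 9, against 6 after centring, 6 under quantile normalization and 5 without SBR vehicle replicate 2. Of all genes, 2.66% were called lower as deposited, and 19.7% were called in either direction after centring and 16.6% under quantile normalization. Of 8 pan-leukocyte markers, *Coro1a* fell (-0.54, adjusted p = 0.0477), and under quantile normalization 4 fell.

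The 14 Kupffer cell and macrophage markers split. After SBR, 5 rose, a share near the 37.4% of all genes, among them *Cd68* by 0.99 (adjusted p = 2.4e-05), and 2 fell, the scavenger receptor *Cd163* by 1.20 (adjusted p = 0.000551) and *Timd4* by 0.81 (adjusted p = 0.0051). After centring 5 rose and 6 fell, beside 20.4% of all genes called higher and 49.2% called in either direction. Without SBR vehicle replicate 2, 7 rose and 2 fell. With WUSTL0717, *Cd163* rose by 0.91 (adjusted p = 0.038) and *Clec4f* by 0.75 (adjusted p = 0.0459, and 0.0514 without SBR vehicle replicate 2), and 0 of the 14 fell. After centring and under quantile normalization 6 rose, without SBR vehicle replicate 2 1 rose, and 0 fell in each. Of all genes, 11.5% were called higher after centring and 8.09% under quantile normalization, against 1.44% as deposited. Their summed TPM was 328 to 454 in sham, 383 to 795 in SBR vehicle and 555 to 702 in SBR WUSTL0717 livers.

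Of the neutrophil list, 2 of 8 markers were in the table, and both rose after SBR, *Csf3r* by 1.16 (adjusted p = 0.00014) and *S100a9*, with a sham mean of 0.85, by 1.15 (adjusted p = 0.00383). Of 8 T and NK cell markers tested, 3 rose, with a median of 0.25, about the share and the median of all genes (37.4% and 0.25). Of 6 B and plasma cell markers 1 rose, and of 10 endothelial markers 2 rose, both below that share. After centring, 0 T and NK cell markers rose and 1 fell, 0 B cell markers rose and 2 fell, and 2 endothelial markers rose and 5 fell. Of all genes, 20.4% were then called higher and 49.2% in either direction. Without SBR vehicle replicate 2, 4, 2 and 5 of these markers rose and 0 fell. With WUSTL0717, 0 of the 2 neutrophil, 8 T and NK cell, 6 B and plasma cell and 10 endothelial markers were called. After centring 4 endothelial markers were called higher, and under quantile normalization 3, with 1 B cell marker lower. Without SBR vehicle replicate 2, 1 B cell marker was called lower. No marker of these lists was at 0 throughout a group. After batch adjustment this does not show expression, since enterocyte markers summed to 831 to 1528 TPM in liver.

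Other tissue compartments moved as well. After SBR, 7 of 7 cholangiocyte and 10 of 11 stellate cell and fibroblast markers rose, with medians of 2.11 and 1.09, beside 37.4% of all genes called higher. Of 10 hepatocyte markers 4 fell, with a median of -0.40, where 710 of 15901 genes were called lower. After centring 10 of 10 hepatocyte markers fell, with -0.71, where 49.2% of all genes were called and 20.4% called higher. Hepatocyte markers summed to 3772 to 5199 TPM in sham, 2194 to 4245 TPM in SBR vehicle and 3953 to 5040 TPM in SBR WUSTL0717 livers. With WUSTL0717, 5 of the 7 cholangiocyte and 5 of the 11 stellate markers fell, beside 2.66% of all genes called lower. Of the 10 hepatocyte markers 0 were called. After centring 6, 5 and 0 of these fell, and 7 hepatocyte markers rose, where 19.7% of all genes were called and 11.5% called higher. Without SBR vehicle replicate 2, 6 cholangiocyte markers fell. The part of any of these cell types in the differences of *Tnf* and the other described genes was not tested.

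Genes whose pattern was most like that of *Tnf* were ranked by Pearson's r over the 18 liver libraries, as a description. These libraries share their groups, so r was also taken after group means had been removed. *Elf3*, an epithelial transcription factor, came first of 15900 genes (0.98, and 0.92 within groups), followed by the amino acid transporter *Slc7a1* (0.96, 0.88), *Ier3* (0.96, 0.88), the urokinase receptor *Plaur* (0.96, 0.88) and *Gm13889* (0.96, 0.87). Of the described genes, *Ccl2* (0.93, 0.84) came closest at rank 24, then *Cxcl16* (0.92, 0.82) at rank 39. *Nfkbia* (0.48, 0.43) and *Cxcl1* (0.41, 0.51) were the least alike.

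In the intestine no described gene was called. In the duodenum *Tnf* had levels of 0.66 to 2.00 in sham, 0.36 to 1.26 in SBR vehicle and 0.12 to 1.21 in SBR WUSTL0717 mice. *Tnf* and *Ccl2* had a mean level under 1 there and were not tested. In the ileum *Tnf* ran from 1.73 to 2.36 in sham, from 0.96 to 2.58 in SBR vehicle and from 0.49 to 2.55 in treated mice. All 3 groups of *Tnf* overlapped in both segments, and its ileal difference after SBR was -0.30 (95% interval -1.39 to 0.79, adjusted p = 0.98).

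In the duodenum after SBR, 0 of the 7 genes tested were called, where 0% of 15093 genes were called. Of the 7, 1 had an unadjusted limma p under 0.05, as did 2426 of all genes. That one was *Cxcl16*, with levels of 2.77 to 4.38 in sham and 4.38 to 6.41 in SBR vehicle mice, which met without overlapping (1.66, SE 0.62, adjusted p = 0.276, exact permutation p = 0.0571), where 3.41% of all genes were higher with no overlap. Its ileal difference was 0.14 (adjusted p = 0.989). With WUSTL0717, 0 of the 7 were called or had an unadjusted p under 0.05, where 0.258% of all genes were called and 802 had such a p. In the duodenum the other genes overlapped between neighbouring groups. Mean levels in sham, SBR vehicle and treated mice were 4.23, 4.08 and 2.96 for *Ccl5*, 1.63, 1.33 and 1.02 for *Cxcl1*, 2.88, 2.23 and 2.41 for *Tnfaip3*, 6.74, 5.72 and 5.55 for *Nfkbia*, 2.90, 3.07 and 3.05 for *Relb* and 2.96, 2.25 and 1.62 for *Icam1*. Their adjusted p ran from 0.417 to 0.914 after SBR and from 0.982 to 1 with WUSTL0717. The untested *Ccl2* had means of 1.95, 0.92 and 0.19 (exact permutation p = 0.143 after SBR and 0.2 with WUSTL0717). No gene of the described lists was called in either segment after SBR or with WUSTL0717 against vehicle.

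In the ileum after SBR, 0 of 9 were called and 0 had an unadjusted p under 0.05, where 0.349% of 15772 genes were called and 1334 had such a p. *Cxcl1* ran from 1.67 to 2.51 in sham, from 1.39 to 1.65 in SBR vehicle and from 0.29 to 1.27 in treated mice, so that the 3 groups did not overlap. Of all genes, 2.77% were lower with no overlap after SBR and 1.27% with WUSTL0717. Each step was -0.55, with adjusted p of 0.705 after SBR and 0.781 with WUSTL0717 (exact permutation p = 0.0286 for each, the smallest that these group sizes can give). With WUSTL0717, 0 of 9 were called, where 0.0697% of all genes were called. *Ccl2* (-0.78, limma p = 0.0481, adjusted p = 0.726, exact permutation p = 0.0857) and *Ccl5* (-0.86, limma p = 0.0468, adjusted p = 0.726, exact permutation p = 0.0857) had an unadjusted limma p under 0.05, as did 1083 of 15772 genes. Ileal *Ccl2* and *Cxcl1* passed the filter on low levels through the sham and SBR vehicle groups, with treated means of 0.67 and 0.95. Apart from *Cxcl1*, neighbouring groups overlapped for every gene in the ileum. Mean levels in sham, SBR vehicle and treated mice were 1.46, 1.45 and 0.67 for *Ccl2*, 3.92, 3.36 and 2.50 for *Ccl5*, 3.32, 3.45 and 3.95 for *Cxcl16*, 4.20, 3.29 and 3.48 for *Tnfaip3*, 7.33, 6.48 and 6.65 for *Nfkbia* and 3.78, 3.79 and 3.18 for *Icam1*. Their adjusted p ran from 0.605 to 1 after SBR and from 0.726 to 0.989 with WUSTL0717. *Relb*, lower in treated livers, had a mean level of 4.81 ± 0.37 in SBR vehicle and 5.32 ± 0.38 in treated ileum (0.51, adjusted p = 0.817).

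**Figure D4:**
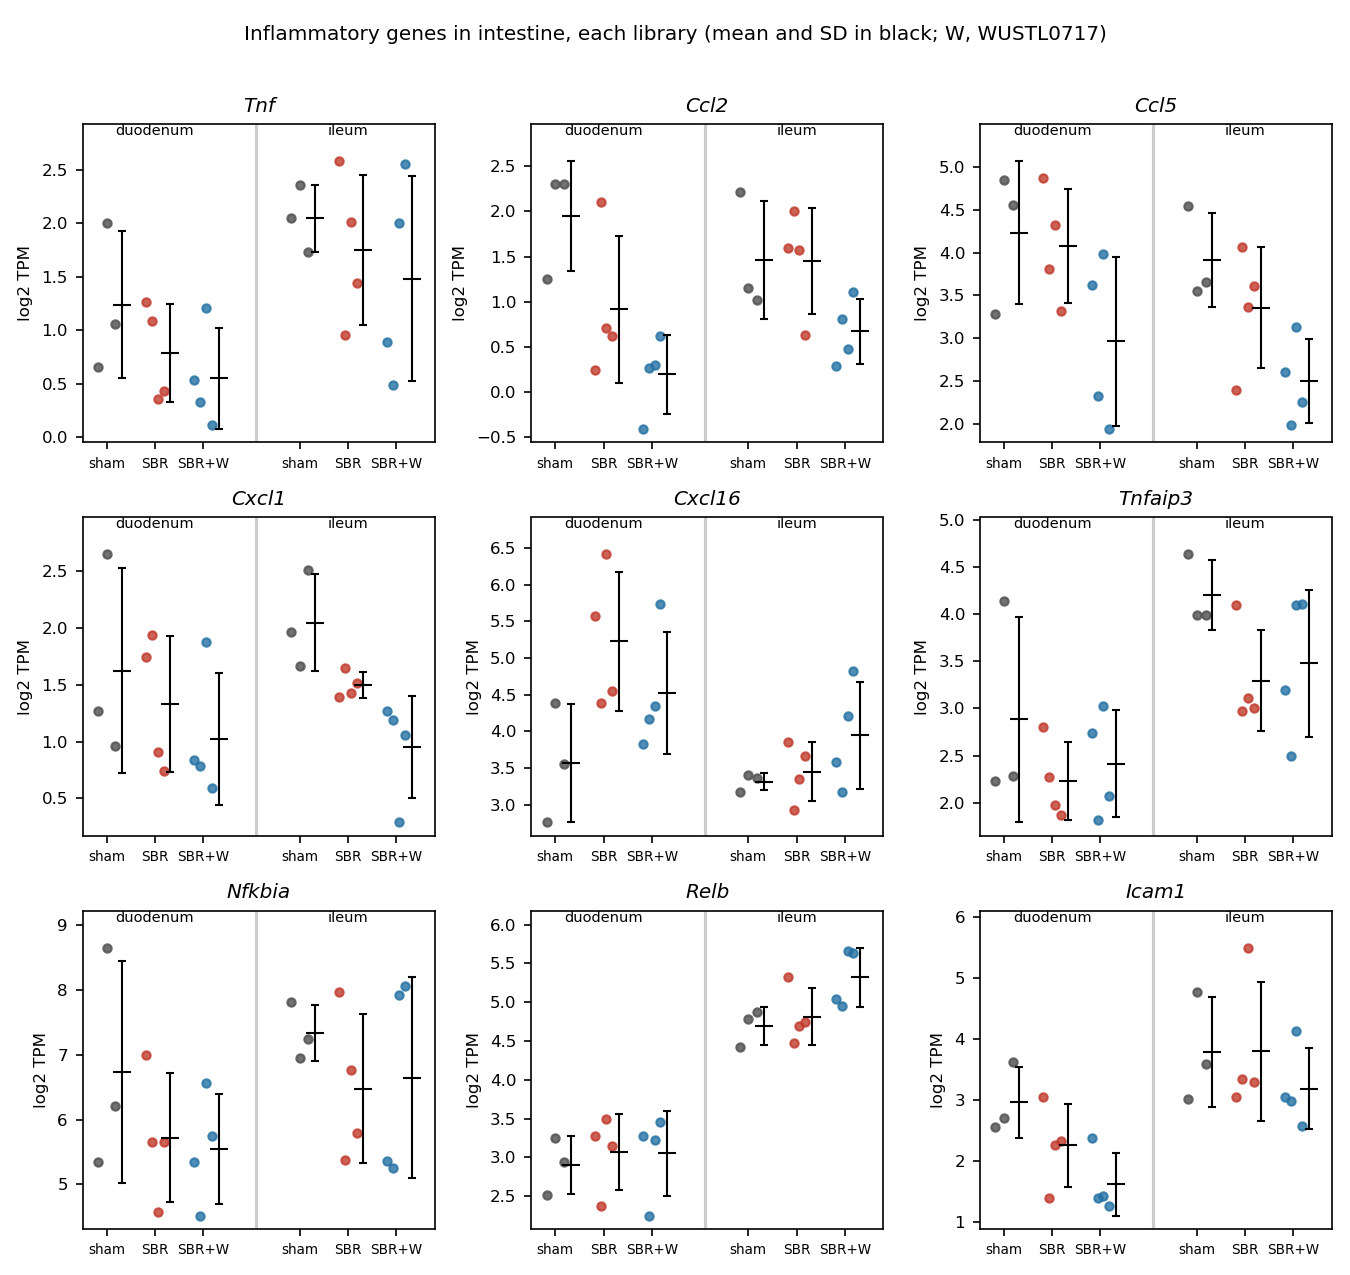
Level in log2 TPM (y axis, ComBat-adjusted, one panel per gene with its own range) in each library of duodenum (left of each panel) and ileum (right), for 3 sham vehicle (grey), 4 SBR vehicle (red) and 4 SBR WUSTL0717 (blue, W) mice per segment, with the group mean and SD in black. Groups overlap for most genes, while Cxcl16 in duodenum lies higher after SBR and Cxcl1 in ileum lies at 3 separate ranges.

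Whether the response to SBR differed between tissues was tested directly, for the 7 genes that passed the filter in all tissues (14881 genes in all). The fit took 1 spread per gene for all tissues. Fitted by tissue, the SE of *Relb* after SBR was 0.15 in liver and 0.41 in duodenum, so p-values against duodenum may be too small. The rise in liver exceeded the change in duodenum for *Tnfaip3* (by 1.70, SE 0.47, adjusted p = 0.00764), *Relb* (by 1.49, SE 0.36, adjusted p = 0.00239) and *Icam1* (by 1.91, SE 0.54, adjusted p = 0.00848), where 29.1% of all genes were called. After centring each library these were 0.98, 0.78 and 1.19 (adjusted p of 0.13, 0.0867 and 0.0686) and none was called. Against ileum, the liver exceeded for *Tnfaip3* (by 1.95, SE 0.47, adjusted p = 0.0092) and *Relb* (by 1.54, SE 0.36, adjusted p = 0.00621), where 4.9% of all genes were called, and both calls held after centring and under library weights. Under library weights further differences were called, in liver against duodenum for *Ccl5* (1.75, adjusted p = 0.0274) and *Nfkbia* (2.42, 0.00737), and in liver against ileum for *Ccl5* (1.68, 0.0295) and *Icam1* (2.00, 0.00255).

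Between ileum and duodenum 0 of 7 were called, where 6.29% of all genes were, and *Cxcl16* was nearest (-1.52, SE 0.58, adjusted p = 0.0883) and was called after centring (-2.0, adjusted p = 0.0174). For WUSTL0717, 0 of 7 differences between tissues were called, where 0.9% of all genes were for liver against duodenum, 0.208% for liver against ileum and 0.235% for ileum against duodenum. *Relb* differed most between liver and ileum (-1.11, SE 0.34, adjusted p = 0.233). These differences carry the scale that the batch adjustment gave to liver and intestine, and the tissue and the labelled batch cannot be told apart.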

How the data were processed

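Ribosomal RNA-depleted total RNA was sequenced from liver, duodenum and post-anastomotic ileum. The authors aligned reads with STAR to GRCm38, counted them per gene with featureCounts, normalized with edgeR (TMM), converted to TPM, took log2 and adjusted the labelled batches with ComBat. The deposited log2 values were used as they stand. Counts, depth and the pseudocount are not given in the sources used here. ComBat shifts and rescales each gene per batch, so levels and folds carry its scale.

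Genes with a mean level of at least 1 in a tissue were fitted with limma 3.58.1 (R 4.3.3, variance trend, Benjamini-Hochberg adjustment over all tested genes), with the 3 groups of a tissue in one fit, and with all 40 libraries for differences between tissues. The study's unpaired unmoderated test was an alternative. Single genes also had exact two-sided permutation tests. Scripts were tested on simulated data. Groups came from the labels, and p-values measure the spread between these libraries. The 9 genes in the table were named in every comparison described, which in the intestine leaves out treated against sham mice. Of other lists, up to 3 called genes per direction with the smallest p were named, plus *Tnfrsf1a*, *Tnfrsf1b*, *Il1r1*, *Il1rn*, *Rela* and *Nfkb1*, and the 5 genes with the highest r with *Tnf*. The genes, lists and rules were chosen with earlier results of these data known. Alternatives covered filters, pseudocount, scaling, library weights, groups in the fit, a replicate block and leaving out each library. For gene lists, other scalings and leaving out SBR vehicle replicate 2 were chosen after seeing the data. Coordinates are GRCm38 (GENCODE M21).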

Additional observations from a re-analysis of the deposited data

Results flagged for a closer look

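In groups of 4 to 10 libraries, the highest or lowest value of a gene was looked at for a gap to the others that is wide for the range of its group. Of 63 such groups, 7 had one, where chance gives about 1 in 20. In liver, SBR vehicle replicate 6 had a *Tnf* level of 2.75 beside 1.58 to 2.07 in the other 7, and SBR vehicle replicate 2 had low levels of *Tnfaip3* (2.99 beside 3.70 to 3.96) and *Icam1* (3.26 beside 3.81 to 4.23). WUSTL0717 replicate 4 had an *Nfkbia* level of 7.33 beside 7.02 to 7.11. In ileum, SBR vehicle replicate 1 had a *Tnfaip3* level of 4.09 beside 2.97 to 3.11, and SBR vehicle replicate 3 an *Icam1* level of 5.49 beside 3.04 to 3.35. In duodenum, WUSTL0717 replicate 1 had an *Icam1* level of 2.38 beside 1.27 to 1.43.

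Responses to SBR differed between tissues by limma's test of the difference for *Tnfaip3* (1.70), *Relb* (1.49) and *Icam1* (1.91) in liver against duodenum, and for *Tnfaip3* (1.95) and *Relb* (1.54) in liver against ileum. The first 3 were not called after centring. *Ccl2* was higher in every treated liver than in any sham liver (1.16) and lower in every treated duodenum than in any sham duodenum (-1.76). In that comparison 12.8% of all tested genes were lower with no overlap, with a median of -0.32. That difference between tissues was not tested, since *Ccl2* did not pass the filter in the duodenum.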

How the results depend on the processing

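Depth is unknown, there is no sham group with WUSTL0717, and groups of 3 and 4 in the intestine leave wide intervals. The 7 genes that rose in liver after SBR were called under every alternative in which they were tested, and a filter of 3 leaves *Tnf* and *Ccl2* out. The causes of the differences below were not tested.

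With libraries centred, quantile normalization and library weights, 4, 4 and 4 of the 9 genes were called with WUSTL0717 in liver, beside 19.7%, 16.6% and 17.7% of all genes (1 gene and 4.1% as reported), and 0 in the unmoderated test, with only the compared groups and with the replicate block. Leaving out single livers gave 0 to 4 genes called with WUSTL0717 (4 without treated replicate 4, 3 without SBR vehicle replicate 2, 2 without treated replicate 5), 7 in each case after SBR, and 6 to 7 against sham. *Ccl5* against sham was not called after centring (0.50) or quantile normalization (0.49). *Nfkbia* was called after SBR under library weights (0.29). *Tnf* against sham was called under library weights (0.61).

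Replicate numbers did not pair the libraries, since correlations of same-numbered deviations ran from -0.32 to 0.31. With the replicate block, 5587 genes were called in liver after SBR, 485 with WUSTL0717 and 6075 against sham, and in the intestine 0 and 8 in duodenum and 12 and 1 in ileum. The block gave -0.50 for *Relb* with WUSTL0717 (adjusted p = 0.131) and 0.54 for *Tnf* against sham (adjusted p = 0.032), and turned *Cxcl1* with WUSTL0717 in liver (0.08), *Ccl5* in duodenum (0.15), and *Ccl2* (0.05) and *Cxcl16* (-0.04) in ileum.

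Of all genes, liver called 4180 after SBR with a filter of 3 and 10462 under library weights (6663 as reported). With WUSTL0717 (652), the numbers were 334 with that filter, 3133 centred, 2635 quantile normalized, 0 unmoderated, 2819 with weights and 148 with only the compared groups. Against sham (4580) weights gave 8387. Duodenum after SBR (0) gave 5, 96, 34, 1 and 2497 with the filter, centring, quantile normalization, no moderation and weights, and with WUSTL0717 (39) 17, 2, 85 and 11 with quantile normalization, no moderation, weights and only the compared groups. Ileum gave 92, 5, 279 and 10 after SBR (55), and with WUSTL0717 (11) 1, 18 and 1 without moderation, with weights and with only the compared groups. Leaving out single libraries gave 5399 to 9010, 93 to 1075 and 2456 to 4875 in liver, 0 to 589 and 7 to 28 in duodenum, and 3 to 38 and 2 to 12 in ileum, with 0 of the described genes in either segment. The 9010 came without SBR vehicle replicate 2, and with WUSTL0717 leaving out treated replicates 1, 2, 3 and 4 gave 176, 113, 93 and 1075 and SBR vehicle replicate 1 gave 408. Against sham, leaving out sham replicate 2 gave 2688 and treated replicate 4 gave 2456. Of genes called with WUSTL0717, 35.1% were higher as reported, 58.4% centred, 48.8% quantile normalized and 22.1% with weights, and against sham 96.9%, 54.5% and 56.1%. After SBR quantile normalization gave 45.6%.

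Signs turned only for uncalled differences. In liver after SBR, centring and quantile normalization gave *Cxcl1* -0.20 and -0.24 and *Nfkbia* -0.14 and -0.03, and against sham *Cxcl1* -0.22 and -0.20 and *Nfkbia* -0.11 and -0.10. With WUSTL0717, quantile normalization gave *Cxcl1* 0.04 and *Nfkbia* -0.07, and weights *Nfkbia* -0.08. In duodenum after SBR, *Ccl5* came to 0.25 and 0.15 and *Cxcl1* to 0.11 and 0.04, and weights gave *Relb* -0.10, and with WUSTL0717 *Nfkbia* 0.19 and *Relb* 0.12. In ileum after SBR, *Icam1* came to -0.07 and -0.04, and weights gave *Icam1* -0.64 and *Ccl2* 0.20. In differences between tissues after SBR, centring gave *Cxcl1* -0.31 (liver against duodenum) and *Nfkbia* -0.31 (ileum against duodenum), and weights *Cxcl16* 0.41 in the former and *Ccl5* 0.07, *Cxcl1* 0.49, *Tnfaip3* 0.98 and *Relb* 0.40 in the latter. With WUSTL0717, weights gave *Cxcl1* -0.06, *Cxcl16* -0.15 and *Nfkbia* -0.30 (liver against duodenum), *Icam1* -0.34 (liver against ileum) and *Nfkbia* -0.07 (ileum against duodenum), and centring *Tnfaip3* 0.03 there. Leaving out single libraries turned the sign in liver with WUSTL0717 for *Cxcl1* (-0.09 to 0.04) and *Nfkbia* (-0.03 to 0.07). In duodenum it did so after SBR for *Ccl5* (-0.63 to 0.16), *Cxcl1* (-0.63 to 0.22) and *Relb* (-0.02 to 0.40), and with WUSTL0717 for *Tnfaip3* (-0.02 to 0.38), *Nfkbia* (-0.56 to 0.25) and *Relb* (-0.25 to 0.25). In ileum it did so after SBR for *Ccl2* (-0.24 to 0.36), *Relb* (-0.06 to 0.23) and *Icam1* (-0.56 to 0.50), and with WUSTL0717 for *Tnf* (-0.62 to 0.06), *Tnfaip3* (-0.03 to 0.51) and *Nfkbia* (-0.30 to 0.67).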

Other observations

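Immediate early genes, which many stimuli switch on within minutes and which NF-κB and AP-1 signalling share, were measured in liver as well. After SBR 9 of 12 tested rose and 0 fell, beside 37.4% of all genes called higher, with a median difference of 1.11 against 0.25 over all genes. After centring 7 rose and 1 fell, beside 20.4% of all genes called higher, with a median of 0.81. The stress gene *Atf3* rose by 2.87 (limma adjusted p = 6.86e-07), *Myc* by 2.52 (adjusted p = 2.6e-07) and the AP-1 subunit *Jun* by 1.86 (adjusted p = 3.96e-08). With WUSTL0717, 0 of the 12 were called, 10 had a lower mean, and the lowest adjusted p was 0.124. After centring 1 was called higher and 1 lower, where 19.7% of all genes were called, and without SBR vehicle replicate 2 0 and 1.

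Acute-phase genes, which hepatocytes make in response to interleukin-6 and interleukin-1, were mixed in their calls. Of 15 tested in liver after SBR, 4 rose and 2 fell, beside 37.4% of all genes called higher, with a median of 0.09. After centring 2 rose and 6 fell, with -0.21, beside 20.4% of all genes called higher and 49.2% called in either direction. Without SBR vehicle replicate 2, 5 rose and 3 fell. *Lcn2*, also made by neutrophils and macrophages, rose by 3.17 (adjusted p = 4.83e-06), *Socs3*, the inhibitor of interleukin-6 signalling, by 0.95 (adjusted p = 0.00121) and *Cp* by 0.51 (adjusted p = 0.0221, and 0.0929 after centring), while the fibrinogen chains *Fgg* and *Fga* fell by 0.53 and 0.48 (adjusted p of 0.0256 and 0.0392). With WUSTL0717, 0 of the 15 were called, and the lowest adjusted p was 0.0758. After centring, and without SBR vehicle replicate 2, 1 was called lower.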
